A study of Danio rerio with 6 samples.

Results

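The miR-92 and miR-25 family comprised 6 of the 134 mature microRNAs counted in small RNA libraries of zebrafish primordial germ cells, the precursors of eggs and sperm. The members were taken by name from the table of counts: the 3p arms miR-92a-3p, miR-92b-3p, miR-25-3p and miR-363-3p, and the 5p arms miR-92a-5p and miR-92a-2-5p. The germ cells came from AB strain embryos, carry the tissue label gonad and had been picked out by their green fluorescence. The sources used here name no treatment and do not give the construct behind the fluorescence. There were 2 libraries at 6 hours post fertilization (hpf), the time of the embryonic shield, 2 at 11 hpf, when the somites begin to form, and 2 at 24 hpf, when the main organs are laid down. Whether libraries of the same age came from different clutches is not stated in the labels, so the spread between them, and p-values that rest on it, may be technical. The family was proposed with the stage differences of these same libraries in view. Levels and stage differences of its members are therefore given as descriptions, with no p-value for any member.

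A microRNA hairpin is cut into a duplex of a 5p and a 3p arm, of which usually a single arm, the guide, stays bound to an Argonaute protein while the other, the passenger, is degraded. The guide finds messenger RNAs mainly through its seed, the bases from the second to the eighth. In vertebrates the 3p arm is the guide of the miR-92 and miR-25 hairpins, and several of these hairpins lie in the miR-17-92 cluster and its paralogues, which are known in mammals for promoting cell proliferation.

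The sequences of the 4 3p arms, as the table lists them with T for U and with the seed in capitals, are shown because the seed joins them and the tail tells them apart:
miR-92a-3p: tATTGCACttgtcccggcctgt
miR-92b-3p: tATTGCACtcgtcccggcctcc
miR-25-3p: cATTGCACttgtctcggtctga
miR-363-3p: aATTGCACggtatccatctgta
All 4 share the seed ATTGCAC, and no other of the 134 listed microRNAs has it. Counted from the 5′ end, miR-92a-3p and miR-92b-3p differ at 3 bases, T10C, G21C and T22C, with the miR-92a-3p base first. miR-92a-3p and miR-25-3p differ at 4 bases, T1C, C14T, C18T and T22A. Aligned base by base, miR-363-3p shares 10 of 22 bases with miR-92a-3p. Their GC content was 63.6% for miR-92b-3p, 54.5% for miR-92a-3p, 50% for miR-25-3p and 40.9% for miR-363-3p.

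The 5p arms are shown in the same way because nearly all of their reads came from 6 hpf:
miR-92a-5p: aGGTTGGGattggtagcaatgct
miR-92a-2-5p: aGGTTGGGatcggccgcaatgct
They share the seed GGTTGGG, again with no other listed microRNA, and differ at T11C, T14C and A15C. In a predicted duplex with miR-92a-3p, miR-92a-5p formed 19 base pairs (-25.5 kcal/mol) and miR-92a-2-5p formed 18 (-23.3 kcal/mol). Each of the 6 members is at an edit distance of at least 9 from every listed microRNA outside the family. Within the family the closest sequences were 3 edits apart, and the sources used here do not say how reads matching more than 1 name were assigned, so the split between close names is uncertain.

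In the RefSeq annotation of the GRCz12tu assembly, used for gene neighbours only, mir92a-1 has mir-17a-1, mir-18a, mir-19a, mir-20a and mir-19b within 10 kb. mir92a-2 has mir17a-2 and mir18b, mir25 has mir93 and mir19d, and mir363 has mir18c, mir20b and mir19c in the same window. mir92b has no microRNA gene within 10 kb. Reads of miR-92a-3p cannot be divided between the mir92a-1 and mir92a-2 hairpins, since the table lists a single miR-92a-3p.

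The libraries held 35718 to 78973 microRNA reads, and the miR-430 family, which clears maternal messenger RNA in early zebrafish embryos, took 87.6% and 90.6% of them at 6 hpf, 80.2% and 84.6% at 11 hpf, and 73.7% and 65.4% at 24 hpf. A share of microRNA reads therefore moves with the miR-430 share. In such bulk libraries fewer cells of a type and less RNA per cell cannot be told apart. PCR copies the same molecule many times, so intervals and floors given here cover counting error only.

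miR-92a-3p was the main family member at every stage. Its reads numbered 1152 and 1274 at 6 hpf, 2198 and 2245 at 11 hpf, and 3884 and 5507 at 24 hpf. Of all microRNA reads it held 3.23% and 2.0% at 6 hpf, 4.85% and 4.66% at 11 hpf, then 5.81% and 6.97% at 24 hpf. On this scale both libraries of each stage were above both of the stage before it. By reads, miR-92a-3p held rank 3 or 4 among all listed microRNAs in each library.

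Outside the miR-430 family the stages did not stand in that order. miR-92a-3p held 26% and 21.2% of the reads outside miR-430 at 6 hpf, 24.5% and 30.3% at 11 hpf, and 22.1% and 20.2% at 24 hpf. On this denominator 6 hpf overlapped each of the later stages, and 11 hpf lay above 24 hpf in both of its libraries. Its higher share of all microRNA reads at later stages thus came together with a lower miR-430 share, whose part in it was not tested.

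miR-92b-3p, in mammals a microRNA of neural progenitors, was nearly undetected at 6 hpf and present at both later stages. It had 1 and 2 reads at 6 hpf, 123 and 93 at 11 hpf, and 377 and 606 at 24 hpf. Its TMM-normalised reads, scaled between libraries by the trimmed mean of M values, were 46.8 times those of 6 hpf at 11 hpf (95% counting interval 15.8 to 229) and 97.3 times at 24 hpf (33.2 to 472). Between 11 and 24 hpf the ratio was 2.08 (1.79 to 2.42). In each of these comparisons the libraries did not overlap, which is common with 2 libraries per stage. It held for 39.1% of the 69 microRNAs tested between 6 and 11 hpf. Between 6 and 24 hpf it held for 68.1%, and between 11 and 24 hpf for 46.4%.

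miR-25-3p, which in mammals comes from the miR-106b-25 cluster, had 76 and 93 reads at 6 hpf, 161 and 287 at 11 hpf, and 479 and 355 at 24 hpf. As a share of microRNA reads it stood at 0.213% and 0.146%, 0.355% and 0.595%, and 0.716% and 0.450%. On this scale the 2 later stages overlapped and both lay above 6 hpf, while on TMM-normalised reads 24 hpf also overlapped 6 hpf. miR-363-3p, in mammals from the miR-106a-363 cluster, had 1 and 53 reads at 6 hpf, 40 and 111 at 11 hpf, and 174 and 181 at 24 hpf. On TMM-normalised reads its low 6 hpf level rests on replicate 1, as replicate 2 lay between the libraries of each later stage. As a share of microRNA reads, 6 hpf replicate 2 was also below all later libraries. It stood at 0.083%, against 0.0883% and 0.230% at 11 hpf and 0.260% and 0.229% at 24 hpf. With TMM scaling, the fitted log2 difference of miR-363-3p between 24 and 6 hpf was 1.17. Without 6 hpf replicate 1 it was 0.22, and without 6 hpf replicate 2 it was 5.82.

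**Figure D1:**
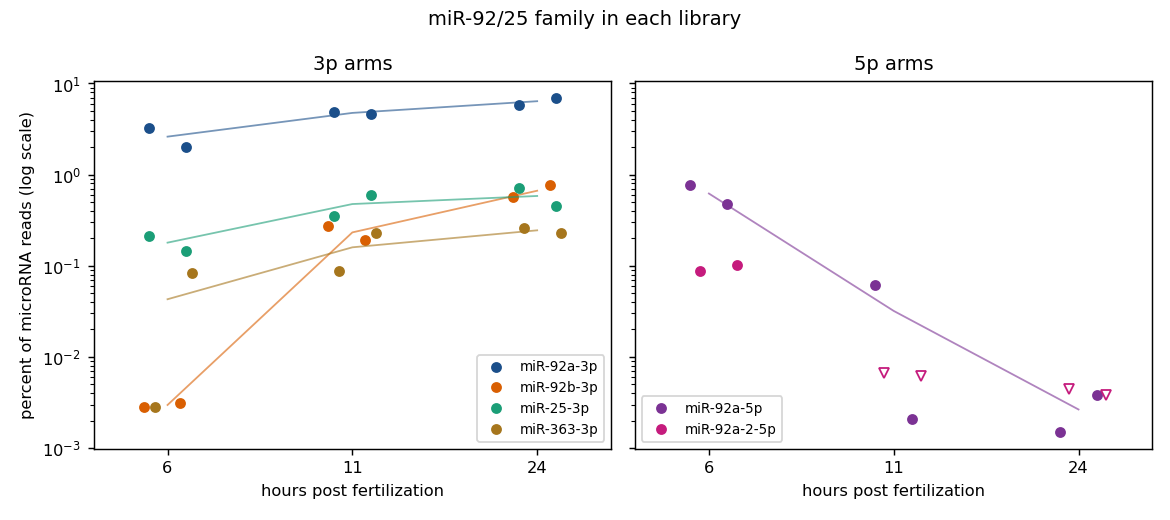
Percent of microRNA reads (log axis) held by each family member in each library at 6, 11 and 24 hpf, 3p arms left and 5p arms right; points are libraries, lines join stage means, and open triangles stand for 0 reads, drawn at the level of 3 reads. miR-92a-3p lies between 2.0% and 6.97% throughout, miR-92b-3p is at 0.0028% and 0.0031% at 6 hpf and at 0.564% and 0.767% at 24 hpf, and miR-92a-5p is at 0.764% and 0.476% at 6 hpf and at 0.0015% and 0.0038% at 24 hpf.

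Below miR-92a-3p the order of the 3p arms by reads differed between stages. At 6 hpf miR-25-3p came next, and miR-363-3p and miR-92b-3p overlapped, each with 1 read in replicate 1. At 11 hpf miR-92b-3p overlapped miR-363-3p, with 0.271% and 0.193% of microRNA reads against 0.0883% and 0.230%, while miR-25-3p lay above both. At 24 hpf miR-92b-3p, at 0.564% and 0.767%, overlapped miR-25-3p, and miR-363-3p at 0.260% and 0.229% was the lowest. Adapter ligation and amplification can differ between sequences, so an order of reads need not be an order of molecules.

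Shares within the shared-seed family do not depend on how libraries are scaled. At 6 hpf miR-92a-3p made up 91.6% ± 2.88 (SD, n = 2) of 3p family reads, compared with 84.6% ± 3.61 at 11 hpf and 80.9% ± 2.68 at 24 hpf. miR-92b-3p made up 0.0813% and 0.141% at 6 hpf, 4.88% and 3.40% at 11 hpf, and 7.67% and 9.11% at 24 hpf. The exact (Clopper-Pearson) 95% intervals of miR-92b-3p did not overlap between libraries of different stages. Such intervals cover counting error and not the spread between libraries, so their separation does not measure a stage difference. Those of miR-25-3p stood apart even within a stage, at 5.46% to 7.41% and 9.37% to 11.7% at 11 hpf. At 24 hpf they were 8.93% to 10.6% and 4.81% to 5.91%. miR-25-3p, at 6.18% and 6.54%, 6.38% and 10.5%, and 9.75% and 5.34%, showed no separation of the stages.

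**Figure D2:**
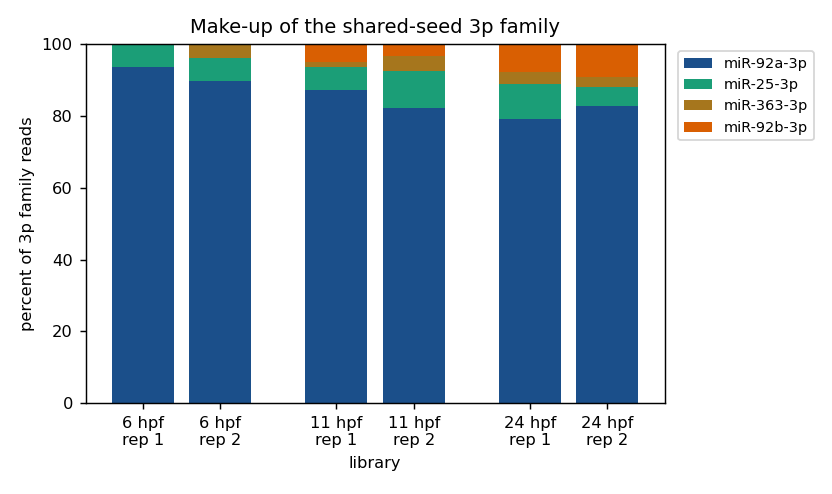
Make-up of the reads of the 4 3p arms that share a seed, as percent of their sum (vertical axis) in each of the 6 libraries (horizontal axis, 2 per stage). miR-92a-3p fills 93.7% and 89.6% of the bars at 6 hpf and 79.0% and 82.8% at 24 hpf, where miR-92b-3p takes 7.67% and 9.11%.

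Summed, the 3p arms held 2.84% ± 0.86 (SD, n = 2) of microRNA reads at 6 hpf, against 5.62% ± 0.078 at 11 hpf and 7.88% ± 0.757 at 24 hpf. Of the reads outside miR-430 they held 27.8% and 23.7% at 6 hpf, 28.1% and 37.0% at 11 hpf, and 27.9% and 24.4% at 24 hpf. The authors' RPM values, which refer to the total reads of a library, gave 117 in each 6 hpf library, 176 and 303 at 11 hpf, and 420 and 313 at 24 hpf. The libraries of the 3 stages stood apart and in order on the share of microRNA reads and in RPM, while those of 6 and 24 hpf overlapped outside miR-430.

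The 5p arms had nearly all of their reads at 6 hpf. miR-92a-5p had 273 and 304 reads at 6 hpf, where it held ranks 8 and 9, then 28 and 1 at 11 hpf and 1 and 3 at 24 hpf. Its normalised reads at 6 hpf were 30.6 times those at 11 hpf (95% counting interval 21.1 to 46.1) and 486 times those at 24 hpf (189 to 1790). The 11 hpf level rested on replicate 1, which held 28 of the 29 reads. Without that library the fitted difference between 24 and 11 hpf was -0.18 in place of -3.86 on the log2 scale, and that between 11 and 6 hpf was -8.64 in place of -4.96.

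miR-92a-2-5p, named for the second miR-92a hairpin, had 31 and 65 reads at 6 hpf and 0 in each of the 4 later libraries. Taking 3 reads as the floor, a count of 0 allowed levels up to 66.2 and 62.2 CPM of microRNA reads at 11 hpf and 44.9 and 38.0 CPM at 24 hpf. The 6 hpf levels were 868 and 1018 CPM. On TMM-scaled sizes, against 3 reads over a stage, it was at least 49.3-fold lower at 11 hpf and at least 108-fold lower at 24 hpf. These bounds hold for that scaling only and cover counting error, not the spread between libraries of a stage. That spread can be wide for a row with 0 reads in a library. At 11 hpf let-7g stood at 4.99 log2 CPM, the level of 0 reads, in replicate 1 and at 11.4 in replicate 2. miR-184 stood at 10.6 and 4.99 in the same libraries. The TMM factors were 0.794 and 0.554 at 6 hpf, 1.11 and 0.992 at 11 hpf, and 1.23 and 1.68 at 24 hpf. Sizes set by the sum of microRNA reads would thus give smaller bounds.

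Set against miR-92a-3p, the 5p arms made up a sizeable part of reads at 6 hpf and almost none later, a ratio that needs no scaling between libraries. The 5p share of miR-92a arm reads was 20.9% (exact 95% interval 18.8 to 23.1) and 22.5% (20.5 to 24.6) at 6 hpf. It was 1.26% (0.837 to 1.81) and 0.0445% (0.00113 to 0.248) at 11 hpf, and 0.0257% (0.000652 to 0.143) and 0.0544% (0.0112 to 0.159) at 24 hpf. With miR-92a-5p alone the 6 hpf share was 19.2% and 19.3%. Both 6 hpf libraries stood above all later ones, and 11 hpf replicate 1 stood above the other 3 later libraries.

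In the miR-430 family, counted the same way, 5p arms gave 20.2% and 20.2% of reads at 6 hpf, 2.97% and 3.52% at 11 hpf, and 3.79% and 4.15% at 24 hpf. Both families were thus near 20% at 6 hpf, and at 24 hpf the miR-430 share stayed at several percent where that of miR-92a was under 0.1%. Of 10 hairpin names with both arms listed and at least 50 reads in every stage, 5 had a lower and 5 a higher 5p share at 24 than at 6 hpf. The difference was -19.2 percentage points for miR-92a and lay between -6.09 and 5.88 points for the other 9. Among those 9 are miR-430a, miR-430b and miR-430i, each taken by its own name. Summed over its family, the miR-430 5p share went from a mean of 20.2% at 6 hpf to 3.97% at 24 hpf. A large fall was thus not particular to miR-92a. The name miR-430b, counted as higher, stood at 0.139% at both stages. Several of these names had nearly all reads from a single arm at 6 hpf, which leaves their share little room to move. The most balanced name, miR-181a, had a 5p share of 59.5% at 6 hpf, 53.0% at 11 hpf and 62.4% at 24 hpf. Between 6 and 24 hpf miR-199 went from 84.8% to 78.7%, miR-30e from 7.30% to 13.2% and miR-430a from 3.26% to 0.623%. The name miR-430i held 22114 reads of the 5p arm and 3 of the 3p arm, and miR-430a 2300 and 165199, so for miR-430 the sum over the family is used.

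**Figure D3:**
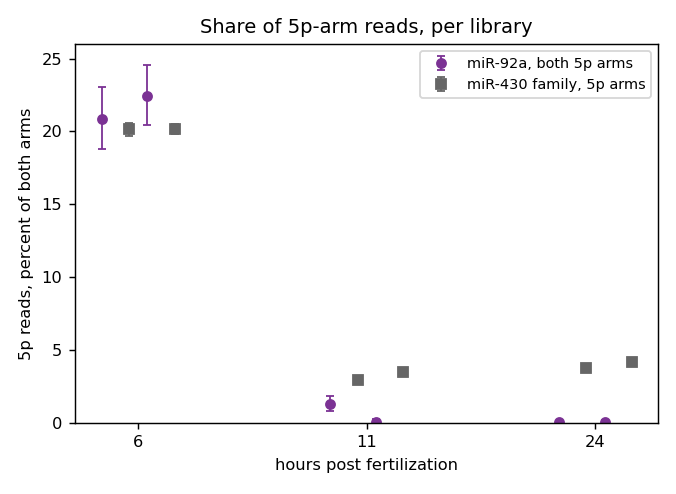
Reads of 5p arms as percent of reads of both arms (vertical axis) in each library at 6, 11 and 24 hpf (horizontal axis), for miR-92a with both of its 5p arms (circles) and for the miR-430 family (squares); bars are exact 95% counting intervals. Both families lie between 20.2% and 22.5% at 6 hpf, and all later miR-92a values are at or under 1.26%.

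The stage differences were fitted with edgeR's quasi-likelihood test over all 69 microRNAs that passed its filter on low counts, among them all 6 members. At an adjusted p under 0.05, edgeR called 4 of 69 (5.8%) between 6 and 11 hpf, 1.45% higher and 4.35% lower, among them 1 of 6 members, miR-92b-3p, higher by 5.50 on the log2 scale (SE 0.36). Between 6 and 24 hpf it called 12 of 69 (17.4%), 8.7% higher and 8.7% lower, among them 2 of 6 members. These were miR-92b-3p, at 6.56 (SE 0.37), and miR-92a-5p, at -8.82 (SE 1.72). Between 11 and 24 hpf it called 0 of 69 (0.0%), with 14 at an unadjusted p under 0.05 and 3 calls by DESeq2. Since the members were chosen with these contrasts in view, no call on a member, here or under other settings, is a test of it. Nothing is read from the number of members called. The call on miR-92b-3p was lost without 6 hpf replicate 2 in both comparisons, and between 6 and 11 hpf also in a fit of those stages only. Without that replicate, which left 1 library at 6 hpf, the differences of miR-92b-3p were 6.04 and 7.29 in place of 5.50 and 6.56. The call on miR-92a-5p was lost without 6 hpf replicate 1, 6 hpf replicate 2, 24 hpf replicate 1 or 24 hpf replicate 2. It was also lost with TMM factors computed without the members and with a term for replicate number.

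On TMM-normalised reads the libraries of 6 and 11 hpf did not overlap for 27 of the 69 (39.1%), 18.8% higher and 20.3% lower at 11 hpf. Of the members 3 were higher (miR-92a-3p, miR-92b-3p and miR-25-3p), 2 lower (both 5p arms) and 1 overlapped. Between 11 and 24 hpf 32 of 69 (46.4%) did not overlap, 26.1% higher and 20.3% lower, and of the members 1 was higher, miR-92b-3p. Between 6 and 24 hpf 47 of 69 (68.1%) did not overlap, 31.9% higher and 36.2% lower, and of the members miR-92a-3p and miR-92b-3p were higher and both 5p arms lower. The 4 3p arms had a positive fitted difference between 6 and 24 hpf, as had 32 of all 69 tested. Their median was 0.93 and that of all tested -0.36. Nothing is read from this, since the members were chosen with these differences in view. The members without a call were at 0.21 (SE 0.14) for miR-92a-3p, 0.68 (SE 0.52) for miR-25-3p and 1.17 (SE 1.55) for miR-363-3p. miR-92a-2-5p, with 0 reads at 24 hpf, is given by its bound.

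The size of the miR-92a-3p difference depended on how libraries were scaled to each other. Between 6 and 24 hpf it was 0.21 with TMM, 0.75 with RLE, the median-ratio factors, 1.29 with the sum of microRNA reads and 1.46 with the authors' library totals. The median of all tested microRNAs moved with it, from -0.36 to 0.18, 0.73 and 0.88. Relative to that median miR-92a-3p stood at 0.57, 0.57, 0.56 and 0.58, which is no sign of stability, since each scaling moves all microRNAs of a library alike. It passed the threshold with the sum of reads, with the authors' totals and with DESeq2. Without the miR-430 family it was at 0.42, and 0.08 above the median of the remaining 58. TMM factors computed without the 6 members, a setting added after the data were seen, gave 0.71. Under TMM miR-92a-3p had the smallest range over the 6 libraries of all 69, at 0.39 log2 units against a median range of 2.94, but its rank was 5 with those factors, 14 with RLE, 22 with the authors' totals and 25 with the sum of reads. miR-92b-3p and miR-92a-5p kept their sign and stood between 6.56 and 7.75 and between -8.82 and -7.65 under the first 4 scalings.

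**Figure D4:**
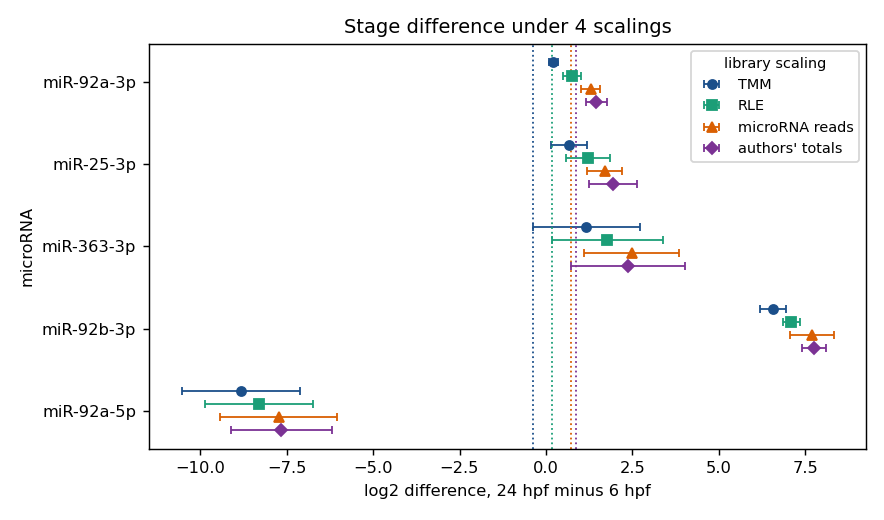
Fitted log2 difference between 24 and 6 hpf (horizontal axis) of 5 members under 4 ways of scaling the libraries (colours); bars are standard errors and dotted lines the median of the 69 tested microRNAs under the same scaling. miR-92a-3p moves from 0.21 to 1.46 together with the median, while miR-92b-3p stays at or above 6.56 and miR-92a-5p at or below -7.65; miR-92a-2-5p, with 0 reads at 24 hpf, is not drawn.

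The other microRNAs of the miR-17-92 cluster and its paralogues were far less abundant than miR-92a-3p. Of 8 listed rows 2 passed the filter on low counts, miR-20a-5p and miR-19b-3p. In each of the 3 comparisons 0 of 2 passed the threshold. Of all 69 tested 5.8% passed it between 6 and 11 hpf, 0.0% between 11 and 24 hpf and 17.4% between 6 and 24 hpf. On TMM-normalised reads both rows were higher at 11 than at 6 hpf without overlap, as were 18.8% of all tested. Nothing is read from these counts of 2 rows. miR-20a-5p, a member of the miR-17 seed family, had 28 and 34 reads at 6 hpf, 198 and 53 at 11 hpf, and 202 and 326 at 24 hpf. There were 41.1 and 37.5 reads of miR-92a-3p for each of miR-20a-5p at 6 hpf, 11.1 and 42.4 at 11 hpf, and 19.2 and 16.9 at 24 hpf. miR-19b-3p, of the miR-19 seed family, had 4 to 20 reads in a library, and its ratio to miR-92a-3p varied less, from 183 to 319 reads of miR-92a-3p for each of its own. Between 24 and 6 hpf the fitted difference was 1.33 (SE 0.66) for miR-20a-5p and 0.15 (SE 0.38) for miR-19b-3p, and the median of these 2 was 0.74 against -0.36 over all tested. The other 6 rows, among them miR-17a-5p and miR-19a-3p, had 13 to 68 reads in all, most of them in a single library in each case.

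By the distance of their centred log2 levels over the 6 libraries, the microRNAs most like miR-92a-3p were miR-30e-5p (0.16 log2 units), miR-19b-3p (0.24) and miR-30d (0.26), against a median distance of 1.0 over 63 tested microRNAs outside the family. Those most like miR-92b-3p were miR-146b (0.67), miR-183-5p (1.31) and miR-2189 (1.56), against a median of 2.73. miR-146b had 0 reads at 6 hpf, 32 and 11 at 11 hpf, and 51 and 158 at 24 hpf. Those most like miR-92a-5p were miR-430i-5p (1.93), miR-430a-5p (1.99) and miR-130c-5p (2.52), against a median of 3.42. In a library miR-30e-5p had 4 to 18 reads, miR-19b-3p 4 to 20 and miR-30d 6 to 35, so their likeness to miR-92a-3p rests on few reads. These distances share the same libraries and scaling and are descriptions.

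microRNAs of other cell types were counted in the same libraries. All 3 sensory organ names (miR-182, miR-183 and miR-96) were listed. Their reads summed to 1 and 2 at 6 hpf, 43 and 7 at 11 hpf, and 175 and 323 at 24 hpf. As for miR-92b-3p, 6 hpf was lowest and 24 hpf highest, but at 11 hpf most of these reads came from replicate 1. At 24 hpf 100 and 240 of them were of miR-183-5p, named above for its likeness to miR-92b-3p. Of 5 neural names 2 were listed, with 0 and 1 reads at 6 hpf, 3 and 2 at 11 hpf, and 50 and 44 at 24 hpf. Of 5 muscle names 2 were listed, with 10 reads in each 6 hpf library, 21 and 17 at 11 hpf, and 59 and 77 at 24 hpf. With TMM scaling these 2 had fitted log2 differences of opposite sign between 6 and 24 hpf. They were -1.06 (SE 0.56) for miR-1 and 7.97 (SE 1.64) for miR-206-3p. Under other scalings the sign for miR-1 may differ. The part of such cells in the level of miR-92b-3p was not tested. Of 8 epithelial names 2 were listed, with 18 and 59 reads at 6 hpf, 12 and 6 at 11 hpf, and 19 and 17 at 24 hpf. Their share of microRNA reads was lower at 24 hpf (0.0284% and 0.0215%) than at 6 hpf (0.0504% and 0.0924%). This holds for their sum only. On TMM-normalised log2 CPM miR-200b-3p alone overlapped, with 7.10 and 10.7 at 6 hpf against 8.04 and 6.53 at 24 hpf. Both endothelial names were listed, with 17 and 27, 40 and 7, and 15 and 60 reads at the same stages, in no stage order. The liver microRNA had 15 reads in 6 hpf replicate 1 and 0 elsewhere. Of 4 blood names, and for the gonad microRNA miR-202, 0 had a listed row, so the germ cell label could not be checked by a microRNA of the gonad.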

How the data were processed

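Small RNA libraries were made with a microscale method, per the labels' protocols. The submitters' processing notes name Bowtie 1.0.0-5 and danRer11. The deposited table gives raw read counts per mature microRNA, and RPM values that are those counts times 1 constant per library, both made by the authors. These constants imply totals of 9019179 to 21230244 reads, of which 0.317% to 0.571% were microRNA reads. The sources used here do not give the annotation or the rule for reads matching several microRNAs. The members and lists were chosen with earlier results of these data known.

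Counts were fitted with edgeR 4.0.16 in R 4.3.3: filterByExpr with a minimum count of 10 (69 of 134 kept), TMM, quasi-likelihood with stage as the only term, all 6 libraries, and Benjamini-Hochberg adjustment over the 69. Each SE was taken as the absolute log2 difference over the root of its F statistic. Ratios of normalised reads used TMM-scaled sizes, with exact 95% intervals, and a stage with 0 reads was set to 3 reads for a bound. Named were all members, the cluster list, and per member 3 microRNAs at the smallest root mean square distance of log2 CPM (prior count 2). On data simulated for 24 against 6 hpf with 20 of 69 changed, edgeR recovered 47.3% of the 16-fold and 10.7% of the 4-fold changes, with 2.25% false among its calls. Alternatives were other scalings, leaving out miR-430, DESeq2 1.42.0, no filter, a replicate term, fits of 2 stages, each library left out and other denominators. Duplexes were predicted with RNAduplex (ViennaRNA 2.7.2) and figures drawn with matplotlib 3.10.9.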

Additional observations from a re-analysis of the deposited data

How the results depend on the processing

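In the simulation, with 2 libraries per stage, edgeR called 10.7% of the 4-fold and 47.3% of the 16-fold changes, so it missed most of both. Beyond the changed microRNAs the simulated libraries had the same composition, and their spread was set by abundance alone, so recovery in the real libraries may differ. Members with few reads carry counting error as well as spread between libraries. Of the refitted member differences, 211 kept direction and side of the threshold, 16 passed it newly, 9 lost it and 19 changed sign, the last all in differences that were not called. Of the member differences, only those of miR-92b-3p (11 and 24 against 6 hpf) and miR-92a-5p (24 against 6 hpf) were called as reported. Every other difference kept its side of the threshold by staying without a call. The 211 are therefore no measure of how well a change held. A stage left with 1 library was assumed to vary like the others. Newly past the threshold were miR-92a-2-5p (24 against 6 hpf, in 8 settings), miR-92a-3p (24 against 6 hpf, in 3), miR-92a-5p (11 against 6 hpf, in 3) and miR-92b-3p (24 against 11 hpf, in 2). The number of microRNAs called between 6 and 11 hpf, 4 as reported, was 1 with the authors' library totals, 1 without the miR-430 family, 7 with DESeq2 and 0 in the fit of those stages, and 0 to 3 with a library left out. Between 11 and 24 hpf, 0 as reported, it was 8 with RLE, 3 with the authors' totals, 3 with DESeq2 and 1 with TMM factors without the members. Between 6 and 24 hpf, 12 as reported, it was 19 with the authors' totals, 19 with DESeq2, 5 with no filter, 28 in the fit of those stages, 4 with TMM factors without the members, and 0 to 28 with a library left out (0 without 6 hpf replicate 2, 28 without 11 hpf replicate 1). With the replicate block it was 4, with 3 and 0 in the other comparisons, and miR-92a-5p lost its call. Same-numbered libraries did not deviate together (correlations of 0.14, 0.06 and -0.24 over 69 microRNAs). Many of these deviations rest on few reads, so this cannot decide whether such libraries share a clutch or batch. The cause of these shifts was not tested.

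Between 11 and 24 hpf the sign of small differences was unsettled. miR-92a-3p, at -0.029, was 0.23 with RLE, 0.43 with library size only, 0.55 with the authors' totals, 0.23 with DESeq2, 0.046 in the fit of those stages, 0.0037 with TMM factors without the members, and -0.080 to 0.19 with a library left out. miR-25-3p, at -0.11, was 0.084, 0.29, 0.42 and 0.085 in the first 4 of these and -0.56 to 0.52 with a library left out. miR-363-3p, at 0.16, was -0.025 without miR-430 and -0.42 to 1.27 with a library left out, and between 6 and 11 hpf, at 1.0, it was -0.073 to 5.71. With reads outside miR-430 as the denominator, the 3p share was 25.7%, 32.5% and 26.1% and the 5p share 6.50%, 0.163% and 0.0083% at 6, 11 and 24 hpf. In the authors' RPM the sums were 117, 240 and 366 for 3p arms and 29.7, 1.04 and 0.113 for 5p arms. The 5p share of miR-92a at 6 hpf was 19.2% with miR-92a-5p alone. With a prior count of 0.5, miR-92b-3p had the same 3 closest microRNAs, and miR-92a-3p and miR-92a-5p shared 2 of 3 each. For miR-92a-3p, miR-10a-5p took the place of miR-19b-3p. For miR-92a-5p, miR-146a took that of miR-130c-5p.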
